A study of Mus musculus with 8 samples.

Results

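*Pparg*, *Cebpa*, *Cebpb*, *Cebpd*, *Ebf1*, *Ebf2*, *Ebf3*, *Fabp4*, *Lpl* and *Zfp423*, regulators and target genes of fat cell formation together with the Ebf transcription factors, were followed through single-cell transcriptomes of embryonic mouse forelimbs. The 10 genes were chosen by symbol, 9 of them were analysed among 28001 features, and *Cebpd* was not analysed here. The mice of the sorted libraries were C57BL/6J embryos of the genotype Hic1CreERT2/CreERT2;Rosa26LSLtdTomato/tdTomato, so both copies of *Hic1* carried the CreERT2 knock-in, and tdTomato marked cells in which *Hic1* was active around the tamoxifen dose (7.5 mg by gavage at embryonic day 10) and the descendants of those cells. TdTomato+ mesenchymal progenitors (MPs) were sorted from forelimbs pooled over several embryos at E11.5, E12.5, E13.5 and E14.5, from the proximal E16.5 segment (distal stylopod, proximal zeugopod and elbow) and from the distal E16.5 segment (distal zeugopod and autopod), with 1 library each. In the sort, cells carrying CD45, CD117, CD31, CD11b, F4/80 or Ter119, which mark blood, endothelial and macrophage cells, were excluded. A further 2 libraries (whole 1 and whole 2) held lineage-negative cells of whole E11.5 limbs with the same alleles, both tdTomato+ and tdTomato-.

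Adipogenesis runs through a relay of transcription factors. C/EBPβ and C/EBPδ act early and induce PPARγ and C/EBPα, which sustain each other and switch on genes for lipid handling such as *Fabp4* and *Lpl*. EBF1 and EBF2 act upstream of or beside PPARγ, EBF2 marks brown and beige fat precursors, and ZFP423 is a zinc finger protein that commits fibroblasts to the preadipocyte state and binds EBF proteins. The Ebf factors also work in B cells, neurons, tendon and bone, and C/EBPα and C/EBPβ in epidermis, so none of these genes marks fat alone.

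After filtering for at least 3000 unique molecular identifiers (UMIs, each marking 1 captured transcript) and at most 10% mitochondrial UMIs, 53085 of 57469 cell barcodes remained, between 3165 and 11109 per library with a median of 6788 to 18473 UMIs per cell. Levels are UMIs per 1000000 UMIs of the cells summed (CPM), and were compared within a gene only, since 3′ counts are not scaled to transcript length. Intervals are exact 95% intervals that cover counting error only. TdTomato ranged from 431 to 1410 CPM in the sorted libraries against 3.89 and 4.21 CPM in whole 1 and whole 2, and *Hic1* from 23.7 to 38.0 CPM against 0.703 and 0.743 CPM. Stages up to E13.5 were captured with the v2 reagent kit and later ones with v3, Dispase was used for dissociation at E11.5 and E12.5 and a Collagenase A and Pronase mixture from E13.5, and the distal E16.5 matrix names a later counting software version than the other sorted libraries. Stage, kit, dissociation and segment therefore cannot be told apart in part of the comparisons, and fewer expressing cells and less RNA per cell cannot be told apart in summed levels. The E16.5 proximal library also held epithelial-like cells (8.46% of cells), which carried 73.5% of its *Cebpa* UMIs and 20.2% of its *Cebpb* UMIs, so library levels are given over cells outside epithelial-like clusters.

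Over the time course the 3 kinds of genes followed different courses. The adipogenic genes *Pparg* and *Fabp4* were nearly undetected until E13.5 and appeared between E14.5 and E16.5, and *Cebpa* increased at each step. *Ebf1*, *Ebf2* and *Ebf3* had their highest summed levels at E12.5 or E13.5, and *Zfp423* had its lowest sorted level at E16.5 proximal. With 1 library per stage none of these differences has a replicate check, and no p-value was computed.

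*Cebpb*, whose product acts at the start of the adipogenic relay and also responds to stress and cytokines, stood at 43.3, 52.9, 43.0 and 95.3 CPM in the libraries from E11.5 to E14.5, at 313 CPM in the proximal and at 203 CPM in the distal E16.5 library. The v3 libraries (E14.5 and both E16.5 segments) thus stood above all v2 libraries, including whole 1 (42.1 CPM) and whole 2 (42.6 CPM). From E14.5 to E16.5 proximal its level changed by 1.71 on the log2 scale (1.69 to 1.74). Of 16 immediate early and heat shock genes, a list that follows cell dissociation, 4 were at least 2-fold higher over the same step, against 5.78% of all genes tested (*Atf3* by 2.01, *Junb* by 1.79 and *Zfp36* by 1.70 among the larger log2 differences), and their summed level was 2235 CPM at E14.5 and 3376 CPM at E16.5 proximal. The same sum was 3459 CPM at E11.5, where *Cebpb* was among its lowest levels. The part of the dissociation response in the *Cebpb* level was not tested.

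*Cebpa*, the partner that sustains PPARγ in fat cells, measured 2.32, 4.41, 6.61 and 9.41 CPM in the libraries from E11.5 to E14.5, 11.1 CPM in the proximal and 10.9 CPM in the distal E16.5 library. Each stage lay above the one before it, and the E16.5 segments differed by less than their counting error (log2 ratio -0.03, -0.12 to 0.06). In whole 1 and whole 2 it was at 1.84 and 1.39 CPM, below every sorted library.

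*Pparg*, the nuclear receptor required for fat cell differentiation, was represented by 2 UMIs in the E11.5 library (0.0635 CPM), 6 in that of E12.5 (0.136 CPM), 4 in that of E13.5 (0.0881 CPM) and 82 in that of E14.5 (0.619 CPM). At E16.5 it was represented by 1426 UMIs in the proximal segment (7.17 CPM) and 527 in the distal segment (3.36 CPM). The E11.5 to E13.5 intervals all overlapped, the E14.5 interval (0.493 to 0.769 CPM) lay above them, and the step from E14.5 to E16.5 proximal was 3.53 on the log2 scale (3.21 to 3.87). Against the 2 UMIs of E11.5 the proximal E16.5 level was 6.82 higher on the log2 scale (4.96 to 9.87), or 6.23 when E11.5 is set to a floor of 3 UMIs. Whole 1 and whole 2 held 11 and 9 UMIs (0.215 and 0.176 CPM), within the counting intervals of E12.5.

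*Fabp4*, which encodes a fatty acid carrier of fat cells, macrophages and capillary endothelium, had 3, 9, 26 and 297 UMIs in the libraries from E11.5 to E14.5 (0.0952, 0.204, 0.573 and 2.24 CPM). It reached 39.0 CPM at E16.5 proximal and 4.10 CPM at E16.5 distal, the latter 1.83-fold over E14.5. The step from E14.5 to E16.5 proximal was 4.12 on the log2 scale (3.95 to 4.29), the largest of the 9 genes over that step. *Lpl*, lipoprotein lipase, which releases fatty acids from circulating lipoproteins, behaved otherwise. It went through 18.3, 19.3, 44.2 and 44.0 CPM from E11.5 to E14.5, with 64.7 CPM in the proximal and 31.9 CPM in the distal E16.5 library, so its main early increase fell between E12.5 and E13.5, when the dissociation enzymes changed but not the kit.

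The Ebf genes were abundant from the first stage. *Ebf1* had 215, 395, 475 and 432 CPM from E11.5 to E14.5, then 275 CPM in the proximal and 412 CPM in the distal E16.5 library. *Ebf2* was at 33.0, 106, 106, 69.6, 70.8 and 91.9 CPM in the same order of libraries, and *Ebf3* at 72.4, 111, 95.9, 56.1, 38.3 and 74.1 CPM. All 3 genes were lower at E14.5 than at E13.5 and higher in the distal than in the proximal segment at E16.5. *Zfp423* was highest in whole 1 (32.0 CPM) and whole 2 (34.9 CPM). Among the sorted libraries it went from 26.2 CPM at E11.5 over 24.3, 22.9 and 19.2 CPM to 13.7 CPM at E16.5 proximal, with 18.7 CPM in the distal segment. Its intervals spanned no change from E11.5 to E12.5 (log2 -0.24 to 0.02) and from E12.5 to E13.5 (-0.21 to 0.04). The kit changed between E13.5 and E14.5.

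**Figure D1:**
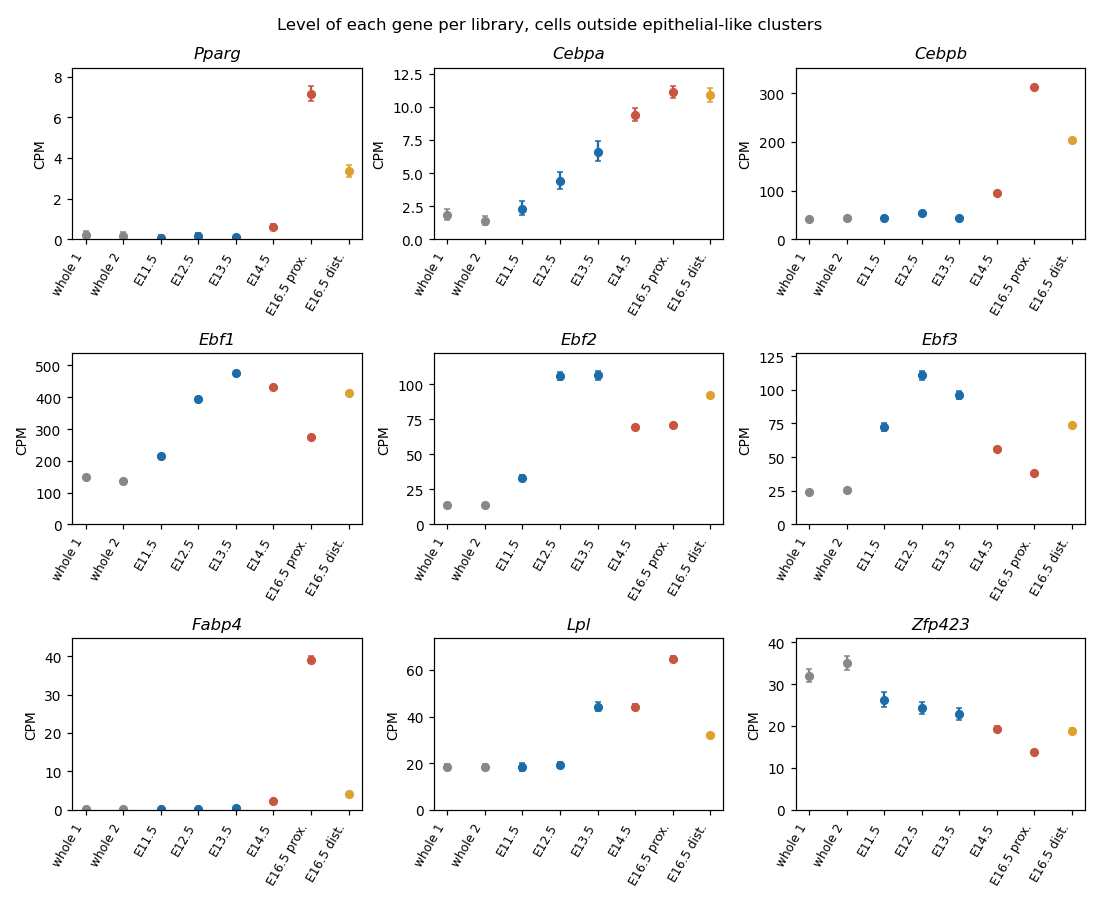
Level of each of the 9 genes (CPM on a linear axis from 0, with exact 95% Poisson intervals) in the 8 libraries, over cells outside epithelial-like clusters, grey for the whole limb libraries, blue for v2 sorted, red for v3 proximal or whole forelimb and yellow for the distal E16.5 library. *Pparg* and *Fabp4* lie near 0 up to E13.5 and peak at E16.5 proximal (7.17 and 39.0 CPM), while *Ebf1* peaks at E13.5 (475 CPM).

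Between E11.5 and E13.5, 4 of the 7 genes tested (those reaching 5 CPM in either library) were at least 2-fold higher, against 6.03% of all genes tested. These were *Ebf2* by 1.69 (1.59 to 1.79), *Cebpa* by 1.51 (1.14 to 1.90), *Lpl* by 1.27 (1.14 to 1.41) and *Ebf1* by 1.14 (1.10 to 1.18) on the log2 scale, and the median was 1.14 over the 7 genes and -0.10 over all genes. From E14.5 to E16.5 proximal, 3 of 9 were at least 2-fold higher (*Pparg*, *Fabp4* and *Cebpb*), against 5.78% of all genes, with medians of 0.24 and -0.18. From E11.5 to E16.5 proximal, 6 of 9 were at least 2-fold higher (*Pparg*, *Cebpa*, *Cebpb*, *Ebf2*, *Fabp4* and *Lpl*), against 13.7% of all genes, with medians of 1.82 and -0.48. *Zfp423* and *Ebf3* were lower over that span, by -0.93 and -0.92 on the log2 scale. *Cebpa* passed the 5 CPM filter only through the later library from E11.5 to E13.5 and from E11.5 to E16.5 proximal. *Pparg* and *Fabp4* did so in both comparisons with E16.5 proximal. Their place among the higher genes was thus largely set by the filter, and the counts are descriptions only. These 3 comparisons share libraries and are not independent of each other.

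Neighbouring genes of the pathway were read from fixed lists over the same steps. Of 15 preadipocyte surface and matrix genes tested between E14.5 and E16.5 proximal, 9 were at least 2-fold higher and 1 was lower, against 5.78% and 6.82% of all genes tested, shares that hold for the other lists of this step too. The log2 difference was 8.33 for *Ly6a* (Sca-1), 2.81 for *Sparcl1* and 2.56 for *Cd34*, and the median was 1.29 over the list and -0.18 over all genes. *Ly6a* passed the 5 CPM filter only through the E16.5 proximal library, and other genes of the list may have done so too. Their count is thus a description only. Of 12 positive regulators of adipogenesis 3 were higher (*Klf9* by 1.54, *Igf1* by 1.46 and *Klf4* by 1.31) and 1 was lower, and of 10 inhibitors 2 were higher (*Klf2* by 2.33 and *Klf3* by 1.42) and 1 was lower (*Nr2f2* by -1.17). None of 5 mature adipocyte genes tested was at least 2-fold higher and 1 was lower. In the E16.5 proximal library outside epithelial-like clusters *Adipoq*, which encodes adiponectin, had 27 UMIs, *Plin1*, which coats lipid droplets, 121, *Cidec* 1, *Lep* (leptin) 2 and *Cfd* (adipsin) 3.

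*Pparg* has several starts, which 3′ counts cannot tell apart. The 250 bases upstream of start sites were read from the RefSeq table (GRCm38.p6) for 6 of the 9 genes. They were searched on both strands for the letters TTGCNNAA, a C/EBP-type pattern found in 9.56% of 32851 such windows, and for an EBF-type palindrome found in 0.779%. The EBF-type palindrome was in none of the 10 windows read. The *Pparg* window shown lies at the inner start, chr6:115421816-115422065 on the plus strand, and is the only window of the set with more than 1 C/EBP-type match, 215 and 16 bases before the start, in capitals. For comparison the *Zfp423* window at chr8:87959596-87959845 on the minus strand holds 1 match 131 bases before the start, and the *Cebpa* window at chr7:35119043-35119292 on the plus strand holds none.

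*Pparg* inner start: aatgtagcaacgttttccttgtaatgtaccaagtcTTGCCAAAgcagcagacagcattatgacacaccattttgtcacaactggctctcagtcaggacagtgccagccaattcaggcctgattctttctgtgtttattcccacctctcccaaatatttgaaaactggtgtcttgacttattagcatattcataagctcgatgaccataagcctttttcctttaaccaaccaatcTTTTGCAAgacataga

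*Zfp423* outer start: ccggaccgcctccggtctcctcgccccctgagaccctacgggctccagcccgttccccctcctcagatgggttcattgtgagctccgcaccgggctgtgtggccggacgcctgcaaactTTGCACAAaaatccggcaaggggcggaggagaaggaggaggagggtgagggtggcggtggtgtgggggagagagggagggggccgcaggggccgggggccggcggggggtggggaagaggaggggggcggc

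*Cebpa* start: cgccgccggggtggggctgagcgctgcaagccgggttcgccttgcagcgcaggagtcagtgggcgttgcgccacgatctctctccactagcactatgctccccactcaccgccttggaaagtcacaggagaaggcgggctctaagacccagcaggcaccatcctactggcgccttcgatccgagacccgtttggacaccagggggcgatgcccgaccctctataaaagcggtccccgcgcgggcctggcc

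The *Pparg* inner window holds 2 CpG dinucleotides, against 22 in the *Cebpa* window, 18 in the *Zfp423* window and a median of 6 over all windows. The window at the outermost *Pparg* start, which overlaps an annotated exon, holds 38 CpG and no match. The *Pparg* gene spans 115360951 to 115490399 on chromosome 6, *Zfp423* 87661810 to 87959595 on chromosome 8 and *Cebpa* 35119293 to 35121928 on chromosome 7 (GRCm38), so the window shown for *Pparg* lies inside the gene and the others directly upstream. A match is a description of the letters only.

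At E11.5 the sorted library was compared with the 2 whole limb libraries, which asks how the Hic1-lineage cells differ from limb mesenchyme at large. edgeR's quasi-likelihood test was run on UMIs summed over mesenchymal cells (3155 sorted, 5088 in whole 1 and 5333 in whole 2), with Benjamini-Hochberg adjustment over 15063 genes. It rests on 1 residual degree of freedom, the lone sorted library is assumed to vary like the whole limb libraries, and p-values measure only the spread between these libraries, which may be technical. All 3 Ebf genes were higher in the sorted cells. *Ebf3*, a factor of muscle, bone and neural development, was at 72.9 CPM in the sorted library against 25.3 and 26.1 CPM, a log2 difference of 1.33 (SE 0.11, edgeR adjusted p = 1.1e-31). *Ebf2* was at 33.1 CPM against 15.4 and 15.1 CPM (0.94, SE 0.12, edgeR adjusted p = 4.2e-13), and *Ebf1* at 216 CPM against 158 and 144 CPM (0.34, SE 0.10, edgeR adjusted p = 0.00125).

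*Zfp423* went the other way, at 26.2 CPM in the sorted library against 31.7 and 34.9 CPM (log2 difference -0.53, SE 0.13, edgeR adjusted p = 9.9e-05). For *Cebpa* (2.27 against 1.71 and 1.19 CPM, edgeR adjusted p = 0.13), *Cebpb* (43.2 against 41.7 and 42.7 CPM, log2 -0.15, adjusted p = 0.277) and *Lpl* (18.3 against 17.9 and 17.6 CPM, log2 -0.14, adjusted p = 0.395) no difference passed the threshold. The fitted values use TMM scaling, under which the last pair were slightly lower in the sorted library although their CPM were not. *Pparg* (2, 8 and 5 UMIs) and *Fabp4* (3, 9 and 5 UMIs) were below the filter on low counts. The 3 genes called higher stand against 26.9% of all genes called higher, and the 1 called lower against 26.6% called lower, so 53.4% of all genes tested were called. Without the filter on low counts *Ebf1* (edgeR adjusted p = 0.0684) and *Zfp423* (0.0535) no longer passed.

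The *Ebf2* difference depended on which whole limb cells were used, while the sorted library kept all of its 3155 mesenchymal cells. When the whole limb libraries were restricted to cells of proximal type (a *Meis1* or *Meis2* UMI and no *Hoxa13* or *Hoxd13* UMI, 1524 and 1718 cells), *Ebf2* was at 38.3 and 35.4 CPM there, above the sorted level, with a log2 difference of -0.27 (edgeR adjusted p = 0.0715). *Ebf3* (1.14, edgeR adjusted p = 2.2e-21) and *Ebf1* (0.58, adjusted p = 3.7e-08) stayed higher in the sorted cells, and *Zfp423* lower (-0.60, adjusted p = 3.7e-05). Within the whole limb libraries *Ebf2* was at 43.7 and 35.5 CPM in a cluster led by *Dusp2*, *Pax1* and *Meis2*, at 37.9 and 34.0 CPM in 1 led by *Pax1*, *Hoxc4* and *Irx3*, and at 2.07 and 0.413 CPM in 1 led by *Tfap2b*, *Hoxd13* and *Hottip*. Its level thus differed among whole limb clusters by more than between the libraries compared. *Ebf3* was at 7.15 and 8.68 CPM in the *Hoxd13* cluster and no higher than 50.2 CPM in any whole limb cluster of both libraries. *Ebf1* reached 303 and 285 CPM in a whole limb cluster led by *Sema3d* and 285 and 274 CPM in 1 led by *Lect1*. These lay above the 216 CPM of the sorted library, in which a cluster led by *Ntrk2* reached 377 CPM.

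Sorted E11.5 cells were also uneven. *Ebf2* was at 160 CPM (146 to 175) in a cluster of 215 cells led by *Rarres2*, *Postn* and *Gdnf*, at 36.6 CPM in 1 led by *Ntrk2*, *Pamr1* and *Aldh1a2* (889 cells), at 17.1 CPM in 1 led by *Hist1h2ap*, *Iffo1* and *Kera* (1120 cells) and at 7.68 CPM in 1 led by *Col8a1*, *Adamtsl1* and *Ogn* (829 cells). *Ebf3* took another order, 66.1, 115, 67.3 and 48.0 CPM in the same clusters. The 2 genes therefore peaked in different sorted clusters. The members were left out of clustering, so these levels did not define the clusters, and they are given with no test.

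Of the partner genes on the fixed Ebf list, *Zfp467* (log2 0.94, edgeR adjusted p = 1.6e-11), *Zfp521*, an EBF antagonist (0.43, adjusted p = 0.000335), and *Ebf4* were called higher in the sorted library, 3 of 3. Of 12 inhibitors of adipogenesis tested 6 were called higher and 3 lower. *Dlk1*, which holds preadipocytes undifferentiated, was at 715 CPM against 148 and 145 CPM (2.10, edgeR adjusted p = 7.2e-90), and *Tcf7l2*, a Wnt effector, was also higher (1.65, adjusted p = 1.7e-54). *Gata3*, which represses *Pparg*, went the other way, at 5.59 CPM against 25.8 and 21.7 CPM (-2.27, edgeR adjusted p = 1.3e-45). Of 15 preadipocyte genes 5 were called higher and 4 lower, near the 26.9% and 26.6% over all genes. *Pdgfra* was higher (0.88, edgeR adjusted p = 5.1e-19), and *Pdgfrb* (-0.68, adjusted p = 4.3e-11) and *Col4a1* (-0.31, adjusted p = 0.0141) were lower. Of 16 immediate early and heat shock genes 10 were called higher in the sorted library and 2 lower (*Hspa1a* by 2.93, *Jun* by 1.42), and their part in the differences of the members was not tested.

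**Figure D2:**
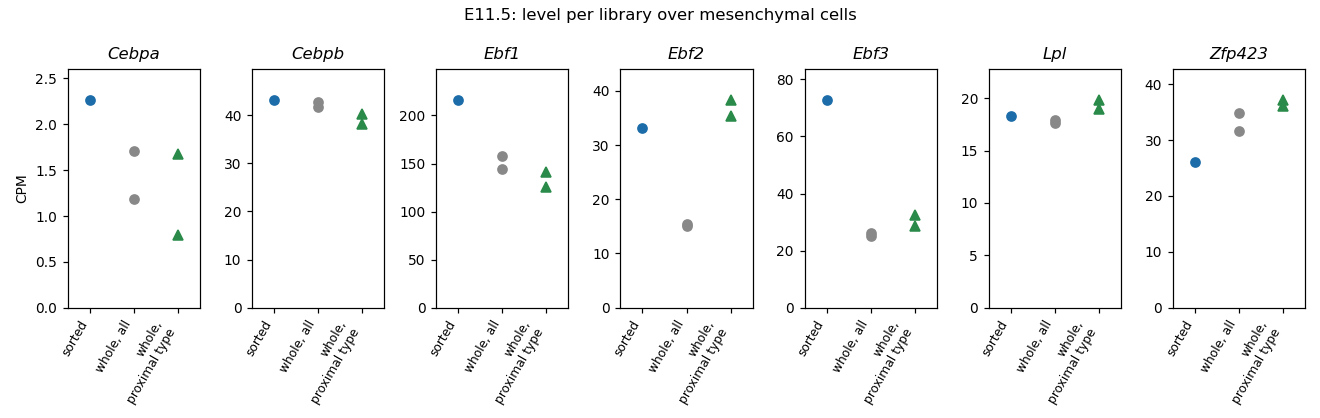
Level (CPM, linear axis from 0) of the 7 genes tested at E11.5 in mesenchymal cells, with 1 point for the sorted library, 2 points for the whole limb libraries and 2 for their cells of proximal type. *Ebf3* is at 72.9 CPM in the sorted library, above every whole limb point, whereas *Ebf2* (33.1 CPM) lies above all whole limb cells but below those of proximal type.

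At E16.5 clusters of both segments were named after fixed markers, and carry the ending "-like" since the names rest on those markers alone. Each gene had its own distribution over the 9 named classes. *Cebpa* was at 168 CPM in epithelial-like cells (1008 cells), where C/EBPα takes part in epidermal differentiation, and outside these highest in dermal fibroblast-like cells (21.5 CPM) and lowest in tenocyte-like cells (4.79 CPM). *Cebpb* was highest in pericyte-like cells (689 CPM), followed by dermal fibroblast-like (476 CPM) and epithelial-like cells (424 CPM). Tenocyte-like cells had 97.7 CPM of it, the lowest class.

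*Ebf1* was at 571 CPM (562 to 580) in fibroblast-like and 557 CPM (545 to 570) in pericyte-like cells, whose intervals overlapped, and at 18.3 CPM in epithelial-like cells. The fibroblast-like clusters were uneven, with 839 CPM in the mostly distal 1 led by *Spink6* and 408 CPM in that led by *Ly6a*. The pericyte-like clusters were at 743 CPM (led by *Rgs5*) and 445 CPM. *Ebf2* and *Ebf3* shared their highest class, perichondrial-like cells (139 and 113 CPM), through a single, almost wholly distal cluster led by *Grp* (658 cells, 225 and 164 CPM). The other perichondrial-like clusters had 45.2 and 20.6 CPM of *Ebf2* and 56.7 and 43.1 CPM of *Ebf3*, below fibrogenic progenitor-like cells (93.8 and 70.5 CPM). Both genes were low in dermal fibroblast-like (9.33 and 8.95 CPM), chondrocyte-like (6.24 and 9.31 CPM) and epithelial-like cells (4.77 and 2.37 CPM). *Ebf1* stood at 175 CPM in dermal fibroblast-like and 126 CPM in chondrocyte-like cells, below its level in the other mesenchymal classes. Within the dermal fibroblast-like class a cluster led by *Gal*, *Sox2* and *Foxd1*, genes known from the dermal papilla of the hair follicle, held 810 CPM of *Ebf1* (777 to 843).

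*Zfp423* was highest in tenocyte-like cells (27.0 CPM) and at 0.912 CPM in epithelial-like cells. *Lpl* was at 70.0 CPM in mitotic-like, 66.7 in fibrogenic progenitor-like and 63.1 in perichondrial-like cells. An unnamed cluster led by *Acta1* and *Tnnc2*, outside these classes, had 97.6 CPM of *Lpl*. *Pparg* was highest, of the named classes, in fibrogenic progenitor-like (12.7 CPM, 11.5 to 14.1) and fibroblast-like cells (11.995 CPM, 10.7 to 13.4), with overlapping intervals, and lowest in chondrocyte-like cells (0.361 CPM). *Fabp4* was highest in pericyte-like cells (130.8 CPM) and at 43.3 CPM in fibroblast-like and 42.1 CPM in fibrogenic progenitor-like cells. A single pericyte-like cluster led by *Rgs5* and *Myh11* (229 cells, 307 CPM) held 1675 of the 1890 *Fabp4* UMIs of that class, and the other 391 pericyte-like cells were at 23.9 CPM. These ranks pool both segments. Within each segment *Cebpa*, *Cebpb*, *Fabp4* and *Zfp423* kept the same highest class. In proximal cells alone *Pparg* was highest in fibroblast-like cells (18.4 CPM), *Ebf1* in pericyte-like cells (514 CPM) and *Ebf2* (93.2 CPM) and *Ebf3* (65.8 CPM) in fibrogenic progenitor-like cells, and in distal cells alone *Pparg* was highest in dermal fibroblast-like (6.96 CPM) and *Lpl* in perichondrial-like cells (76.2 CPM).

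The class with the highest level held under the clusterings at resolution 0.5 and 2, thinning to 3000 UMIs and removal of the highest doublet scores for *Cebpa*, *Cebpb*, *Ebf1*, *Ebf3*, *Fabp4* and *Zfp423*. It moved for *Pparg* (pericyte-like at resolution 0.5, 21.8 CPM), *Ebf2* (fibrogenic progenitor-like at resolution 2, 114 CPM) and *Lpl* (3 different classes). At resolution 0.5 the Car3 Agt cells described below were part of a larger cluster. At resolution 1 pericyte-like cells had 5.12 CPM of *Pparg*, and no E16.5 cluster other than the Car3 Agt cells exceeded 17.6 CPM. By these levels the pericyte-like class at resolution 0.5 took in Car3 Agt cells. Its *Pparg* and *Fabp4* levels at that resolution are therefore not those of pericyte-like cells alone. Where cells were instead called by at least 3 markers of a class, only *Cebpa*, *Cebpb* and *Fabp4* kept their highest class, and outside the epithelial-like cells *Cebpa* was then highest in perineurial-like (47.5 CPM) and lowest in pericyte-like cells (5.23 CPM). *Pparg* was then highest in fibroblast-like cells (9.50 CPM), *Ebf1* in pericyte-like cells (678 CPM), *Ebf2* (102.9 CPM), *Ebf3* (89.0 CPM) and *Lpl* (58.7 CPM) in fibrogenic progenitor-like cells and *Zfp423* in perichondrial-like cells (25.4 CPM).

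**Figure D3:**
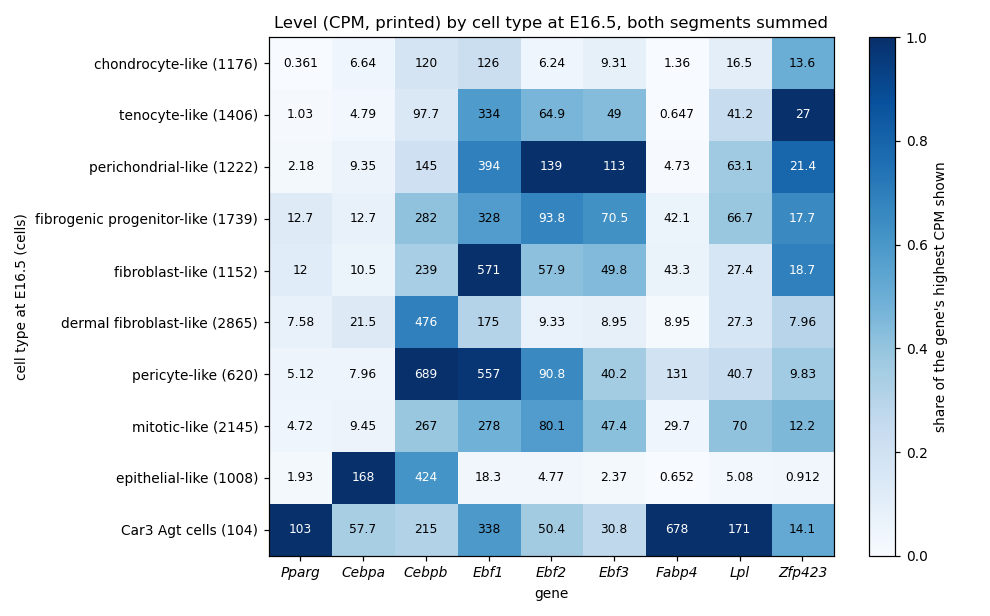
Level of the 9 genes (columns, CPM printed in each cell) in the named classes and the Car3 Agt cells at E16.5 (lines, both segments, cell numbers in brackets), with colour showing the share of the highest level of that gene. *Ebf2* and *Ebf3* peak in perichondrial-like cells (139 and 113 CPM, carried by 1 mostly distal cluster), whereas *Pparg*, *Fabp4* and *Lpl* peak in the Car3 Agt cells.

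The highest levels of *Pparg*, *Fabp4* and *Lpl* at E16.5 lay outside the named classes, in a small cluster that is called here Car3 Agt cells after its leading genes. It was singled out after its values were seen and stayed unnamed, since 2 fibroblast markers passed the rule and no adipocyte class could be called. It held 103 cells of the proximal library and 1 of the distal library, 1.01% of the proximal cells outside epithelial-like clusters. Among its leading genes were *Car3* (540 CPM against 2.19 CPM in the rest), *Agt* (155 against 1.48 CPM) and *Wfdc18*, of which carbonic anhydrase 3 and angiotensinogen are known from fat among other tissues.

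*Pparg* was at 102.5 CPM in these cells (89.9 to 116) against 6.05 CPM in the other proximal cells, 17.0-fold higher (14.7 to 19.5). At clustering resolution 0.5 these cells merged into a cluster of 484 cells with 35.6 CPM of *Pparg*, and at resolution 2 a cluster of 122 cells had 93.9 CPM. *Fabp4* was at 687 against 31.4 CPM (21.9-fold), *Cebpa* at 58.4 against 10.6 CPM (5.53-fold) and *Lpl* at 173 against 63.4 CPM (2.73-fold). The remaining regulators did not share this pattern. *Cebpb* was lower in the cluster (215 against 314 CPM, 0.685-fold), *Ebf1* was at 339 against 275 CPM, *Ebf2* at 51.0 against 71.1 CPM, *Ebf3* at 31.1 against 38.4 CPM and *Zfp423* at 13.8 against 13.7 CPM. The cluster held 1.16% of the UMIs but 16.6% of the *Pparg* and 20.4% of the *Fabp4* UMIs outside epithelial-like clusters.

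With every cell thinned to 3000 UMIs, *Pparg* was seen in 21.4% of the cluster's cells (13.9 to 30.5) against 1.63% of the rest. In tenocyte-like proximal cells the share was 0.598%. Over both segments that class was already among the lowest for *Pparg* (1.03 CPM) and *Fabp4* (0.647 CPM), so it gives no independent background. *Fabp4* was seen in 60.2% of the cluster's cells (50.1 to 69.7), 2.53% of the rest and 0.12% of tenocyte-like cells. Median depth before thinning was 22002 UMIs in the cluster, 17878 in the rest and 16207 in tenocyte-like cells, and the unthinned *Pparg* share was 75.7% in the cluster and 2.03% in tenocyte-like cells. Cells among the highest doublet scores made up 4.85% of the cluster and 8.43% of the rest.

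Genes of the mature adipocyte were present in the cluster at low level. *Adipoq* had 10 UMIs (4.33 CPM, 50.04-fold over the rest, 20.5 to 116), *Plin1* 14 UMIs (6.06 CPM, 11.1-fold) and *Cd36*, a fatty acid translocase, 84 UMIs (36.3 CPM, 16.5-fold). *Cidec*, *Retn*, *Cfd* and *Plin4* had 1 UMI each, and *Lep* and *Ucp1* had 0, which allows up to 1.30 CPM with a limit of 3 UMIs. That limit is tighter than an exact 95% interval. *Dlk1* was at 5536 CPM against 4306 CPM in the rest. Among genes named after their values were seen, *Bmper* (68.3 against 11.2 CPM) and *Col15a1* (43.7 against 10.7 CPM) were higher in the cluster, *Mgp* (38.1 against 713 CPM) and *Pdgfrb* (18.2 against 50.4 CPM) lower, and *Runx2*, the osteoblast regulator, had 0 UMIs against 9.74 CPM. A cluster against the rest is a description, and no test was made.

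**Figure D4:**
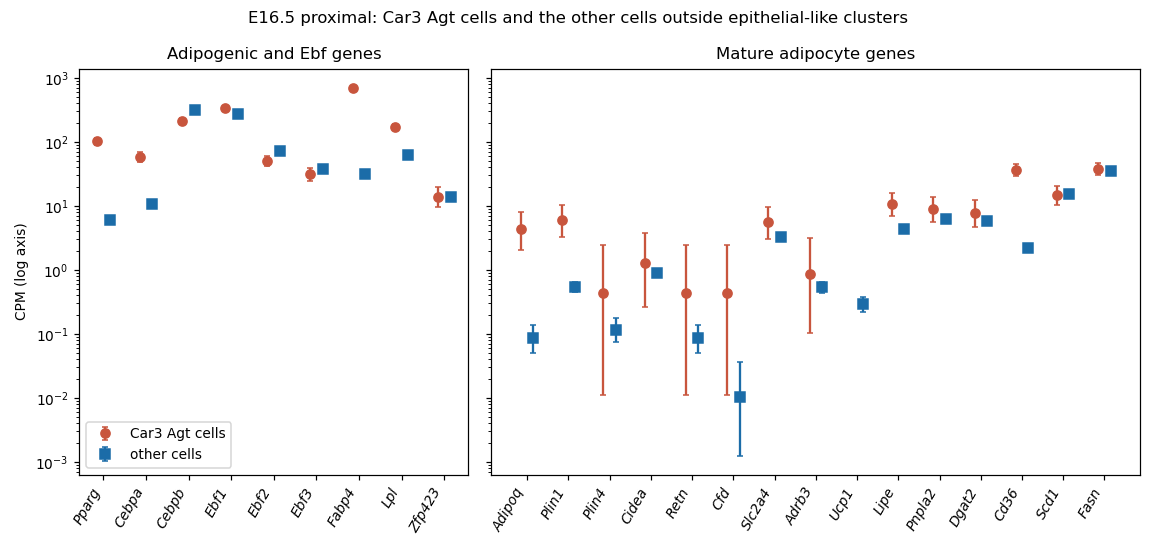
Level in the 103 Car3 Agt cells of the E16.5 proximal library (red circles) and in the other cells outside epithelial-like clusters (blue squares), as CPM on a log axis with exact 95% Poisson intervals, for the 9 genes on the left and mature adipocyte genes on the right (*Cidec* and *Lep* are not shown and levels of 0 are not drawn). *Pparg* (102.5 against 6.05 CPM) and *Fabp4* (687 against 31.4 CPM) are far apart, while *Zfp423* (13.8 and 13.7 CPM) lies together.

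*Fabp4* is also a capillary endothelial gene, so its levels were set beside endothelial markers (8 genes). In the pericyte-like cluster led by *Rgs5* and *Myh11* in the proximal segment (163 cells), *Fabp4* was at 418 CPM, 8 of 8 endothelial markers were detected and their summed level was 339 CPM. Within it, 138 cells with an endothelial marker UMI had 479 CPM of *Fabp4* (456 to 504), and 25 cells without 1 had 42.1 CPM (26.4 to 63.8). In the Car3 Agt cells the endothelial sum was 12.975 CPM, *Podxl*, *Tie1* and *Esam* were at 0, and *Fabp4* was at 703 CPM in 84 cells without an endothelial marker UMI and 624 CPM in 19 cells with 1. In the *Rgs5* cluster *Fabp4* was seen in 65 of the 138 cells with an endothelial marker UMI and in 8 of the 25 without. In the Car3 Agt cells the intervals of both kinds overlapped (665 to 742 and 555 to 700 CPM). The source of the *Fabp4* UMIs was not tested. In the other cells the 2 kinds had 24.8 and 19.4 CPM.

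**Figure D5:**
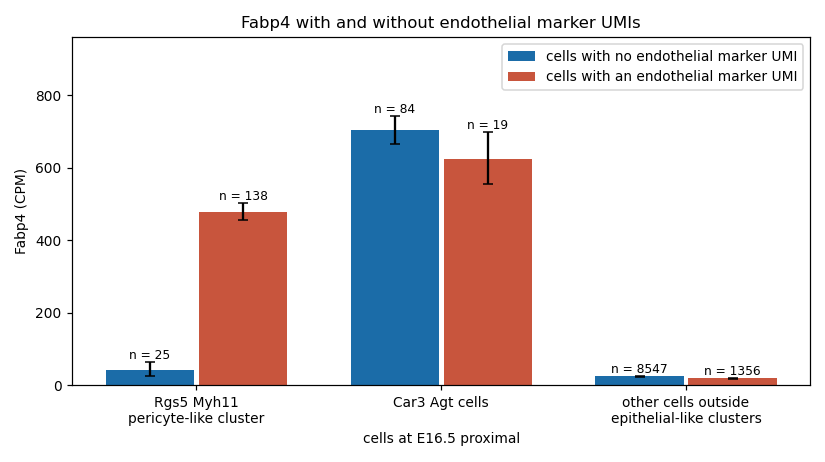
*Fabp4* level (CPM, bars from 0, exact 95% Poisson intervals, cell numbers above) at E16.5 proximal in cells without (blue) and with (red) a UMI of an endothelial marker. In the *Rgs5* *Myh11* cluster the bars stand at 42.1 and 479 CPM, in the Car3 Agt cells at 703 and 624 CPM.

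At 3000 UMIs per cell, cells with several adipogenic genes at once were rare. In E16.5 proximal cells thinned to 3000 UMIs, *Pparg* was seen in 186 of 10169 cells (1.83%, 1.58 to 2.11, unthinned 8.72%), at E14.5 in 14 of 8312 and at E11.5 in 0 of 3165 cells (unthinned 0.0632%). With a limit of 3 cells, a count of 0 allows up to 0.0948% of cells with a UMI at that depth. The exact 95% interval reaches 0.116%. Both *Pparg* and *Cebpa* were seen in 16 proximal cells (0.157%, 0.09 to 0.255), in 0.109% without the Car3 Agt cells and in 2.91% without thinning. Unthinned, *Pparg* with *Lpl* was seen in 4.57%, *Fabp4* with *Lpl* in 4.44% and *Pparg* with *Fabp4* in 3.23% of proximal cells. After thinning, *Fabp4* was seen in 22.0% of the proximal cells with *Pparg* and 2.76% of those without. The shares were 8.60% and 3.08% for *Cebpa* and 17.2% and 13.9% for *Lpl*, with the Car3 Agt cells included. Of *Pparg*, *Cebpa*, *Fabp4* and *Lpl*, at least 2 were seen in 181 proximal cells (35 of them Car3 Agt cells), at least 3 in 25 (9) and all 4 in 2 (1). In the distal segment the numbers were 47, 2 and 0 of 8379 cells, and at E14.5 28, 0 and 0 of 8312.

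The segments of the E16.5 limb differed in *Pparg*, *Fabp4* and *Lpl* and, in the opposite direction, in the Ebf genes, while *Cebpa* was level (10.9 against 11.1 CPM). *Pparg* (3.36 CPM distal against 7.17 CPM proximal, log2 ratio -1.09, -1.24 to -0.95), *Fabp4* (4.10 against 39.0 CPM, -3.25, -3.37 to -3.14) and *Lpl* (31.9 against 64.7 CPM, -1.02, -1.07 to -0.97) were at least 2-fold lower in the distal segment, 3 of 9 genes against 2.56% of all genes tested. None was at least 2-fold higher, against 4.5% of all genes. *Pparg* and *Fabp4* passed the 5 CPM filter only through the proximal library, so these counts are descriptions only. Fewer genes passed the 2-fold line as a mean over cells or after thinning to 3000 UMIs. The Ebf genes were higher distally, *Ebf3* by 0.95 (74.1 against 38.3 CPM), *Ebf1* by 0.58 and *Ebf2* by 0.38 on the log2 scale, as was *Zfp423* by 0.45, and *Cebpb* was lower (-0.62). With fibroblast-like clusters alone, *Pparg* (-2.48), *Fabp4* (-4.14) and *Cebpb* (-1.50) were the genes at least 2-fold lower distally, *Lpl* was at -0.39, and *Ebf2* (1.52) and *Ebf3* (1.31) were at least 2-fold higher. Different clusters made up this class in each segment, and the share of all genes past 2-fold is not given for it.

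The Car3 Agt cells, nearly all proximal, bore on 1 part of this. Without them the ratio was -0.86 for *Pparg* and -2.94 for *Fabp4*, and 1 of the 9 genes (*Fabp4*) stayed at least 2-fold lower. *Lpl* hardly moved (-1.02 with and -0.99 without them) and only crossed the 2-fold line. Endothelial markers summed to 13.2 CPM in the distal and 16.7 CPM in the proximal library, pericyte markers to 188 and 222 CPM and immediate early genes to 4347 and 3376 CPM, and their part in the ratios was not tested.

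Within the 8 named classes outside the epithelium the 95% intervals of *Pparg* lay apart in 3, fibroblast-like, fibrogenic progenitor-like and mitotic-like cells, each lower distally. They overlapped in the other 5, with as few as 2 distal and 6 proximal UMIs in chondrocyte-like cells. The intervals of *Fabp4* lay apart in 5 classes, each lower distally, and overlapped in perichondrial-like, tenocyte-like and chondrocyte-like cells. In 4 of these classes different clusters made up the segments, so that a difference within the class also compares clusters. Most distal perichondrial-like cells were in a cluster led by *Grp* (1 proximal and 657 distal cells) and many proximal ones in a cluster with *Omd* and *Alpl* (207 and 17). The chondrocyte-like class was divided between a *Matn1* *Epyc* cluster (567 and 15) and a *Sema3e* *Cytl1* cluster (0 and 468), and the dermal fibroblast-like class between a *Rspo1* *Nrgn* cluster (926 and 224), a *Cxcl5* *Ccl7* cluster (11 and 966) and a *Kcna4* *Cadps* cluster (7 and 531). In fibroblast-like cells *Pparg* was at 3.28 CPM distally and 18.4 CPM proximally and *Fabp4* at 4.08 and 71.9 CPM, and the clusters of this class were 1 led by *Ly6a* and *Wnt2* (647 proximal and 69 distal cells) and 1 led by *Spink6* and *Cldn3* (12 and 424). In fibrogenic progenitor-like cells, a single cluster led by *Sfrp4* and *Prss12*, *Pparg* was at 4.99 and 14.1 CPM and *Fabp4* at 1.52 and 49.2 CPM. In pericyte-like cells *Fabp4* was at 25.5 and 189 CPM. *Lpl* differed in direction among classes, since it was at 54.6 CPM distally against 33.1 CPM proximally in pericyte-like cells and at 39.5 against 71.5 CPM in fibrogenic progenitor-like cells. *Ebf3* was higher distally in each of the 8 classes. In the 4 classes whose clusters held cells of both segments it was at 97.6 against 65.8 CPM (fibrogenic progenitor-like), 61.5 against 40.3 CPM (mitotic-like), 62.7 against 27.8 CPM (pericyte-like) and 66.9 against 34.97 CPM (tenocyte-like). How many of all genes differed in as many classes is not given, so these counts of classes are descriptions only.

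Of the lists, to be read against 4.5% of all genes at least 2-fold higher and 2.56% lower, 3 of 16 immediate early genes were at least 2-fold higher distally (*Egr1* by 2.07, *Zfp36* by 1.20 and *Fos* by 1.13) and none lower. Of 13 positive regulators of adipogenesis 2 were higher (*Bmp4* by 1.52 among them) and 1 lower (*Igf1* by -1.16). Of 15 preadipocyte genes 1 was higher (*Pi16* by 1.33) and 1 lower, and none of 4 mature adipocyte genes was past 2-fold.

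Single clusters carried the highest Ebf levels. *Ebf1* reached 1732 CPM in an E13.5 cluster of 743 cells led by *Stmn2*, *Fam159a* and *Pcdh15*, and 1040 CPM in an E14.5 cluster of 1063 cells that also had *Pcdh15* and *Stmn2* among its leading genes with *Hoxa13* and *Hoxd13*. *Ebf2* reached 299 CPM and *Ebf3* 189.6 CPM in an E13.5 cluster of 472 cells led by *Pcp4*, *Ppm1h* and *Gdf6*, with *Gdf5*, a joint gene, among its leading genes. At E16.5 *Ebf2* (225 CPM) and *Ebf3* (164 CPM) were highest in the same perichondrial-like cluster, led by *Grp*. A cluster led by the muscle fibre genes *Acta1* and *Tnnc2* (2441 proximal cells) held 124 CPM of *Ebf2* and 98.3 CPM of *Lpl* and carried 39.1% of the *Ebf2* and 33.8% of the *Lpl* UMIs of that library with 22.0% of its cells, and *Pparg* was at 1.20 CPM there. The paper reports no myogenic contribution of tdTomato+ cells, and whether the fibre transcripts were made in these cells was not tested.

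Groups of at least 100 cells were a named class or an unnamed cluster in 1 library, with the epithelial-like and the Car3 Agt cells included. Across 70 such groups the Ebf genes varied together, with Pearson's r of log2(CPM + 1) of 0.84 for *Ebf1* and *Ebf2*, 0.83 for *Ebf2* and *Ebf3* and 0.79 for *Ebf1* and *Ebf3*. Within the 26 groups of E16.5 these were 0.79, 0.92 and 0.82. *Pparg* and *Fabp4* had r = 0.85 (0.79 at E16.5), and *Ebf3* and *Pparg* r = -0.08. *Zfp423* was opposed to both C/EBP genes, with r = -0.80 for *Cebpa* and -0.77 for *Cebpb* (-0.75 and -0.67 at E16.5). The groups share libraries, depth and stage, so these are descriptions without a p-value.

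Among the genes most alike in pattern over the 70 groups were *Mmp23* (r = 0.78), *Nfe2l2* and *Il1r1* for *Pparg*, *Il1r1* (0.77), *Nfe2l2* and *Ly6a* for *Fabp4*, *Mt1* (0.89), *Atf5* and *Il1r1* for *Cebpb*, and *Degs1* (0.88), *Elovl1* and *Rnh1* for *Cebpa*. For the Ebf genes they were *Stx4a* (0.82) and *Bmp1* for *Ebf1*, *Stx4a* (0.85), *Ncald* and *Map7d1* for *Ebf2*, and *Wdr60* (0.88), *Dtx3* and *Txndc16* for *Ebf3*. *Lpl* had its closest pattern in *Rbm46* (0.64), *G0s2* and *Serpinf1*, the weakest likeness of the 9 genes, and *Zfp423* in *Mex3a* (0.85), *Zfp462* and *Lzts2*.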

How the data were processed

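The authors deposited UMI counts by gene and barcode, not normalised, from the Cell Ranger pipeline on a modified mm10 reference, per the file headers and the methods. Groups came from the GEO labels, and nothing states that whole 1 and whole 2 came from separate embryos. At most 54 barcodes were shared between any 2 libraries. Genes on the opposite strand overlap *Pparg* (*Gm44079*), *Ebf1*, *Ebf2* and *Cebpb*, and the use of strand in counting is not given in the sources used here.

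Cells were clustered from 2000 variable genes, 50 principal components and 25 neighbours by Leiden (resolution 1; leidenalg 0.10.2, scanpy 1.11.5) without the 9 genes, in separate runs on the sorted time course, on both E16.5 segments and on the E11.5 libraries. A cluster took the name of 1 of 17 classes when at least 3 markers were at a log2 fold of at least 1 and in 10% of its cells, provided that no other class had more markers in its top 10. A cluster with muscle genes in the lead (20 listed) stayed unnamed. Doublets were scored, but the automatic threshold called almost no cells and was not used, and as an alternative the expected share of cells with the highest scores was removed.

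UMIs were summed per library and class. Ratios of single libraries were not tested and carry conditional binomial 95% intervals, and shares Clopper-Pearson intervals. For 2-fold differences a gene counted as tested if it reached 5 CPM in either library. The E11.5 test was run in R 4.3.3 (edgeR 4.0.16; TMM, filterByExpr, adjusted p under 0.05), tested on simulated data, with DESeq2 1.42.0 and limma-voom (limma 3.58.1) as alternatives. The members, lists and markers were chosen with earlier results of these data known. Of each list the text names the 3 genes with the largest log2 difference at 20 CPM or more, and mature adipocyte genes by their UMIs. Likeness was taken over genes at a mean of 10 CPM or more. Some genes that these rules would name are not reported here.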

Additional observations from a re-analysis of the deposited data

Results flagged for a closer look

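*Ebf3* and *Lpl* stood out because the E16.5 segments lay on opposite sides of the E14.5 level. *Ebf3* was higher than at E14.5 in the distal segment (log2 0.40) and lower in the proximal segment (-0.55), so the distal minus proximal log2 difference was 0.951. *Lpl* was lower in the distal (-0.46) and higher in the proximal segment (0.55), a difference of -1.02. The E14.5 level cancels out of both differences, which are the E16.5 distal over proximal ratios already given. The E14.5 library was not divided into segments, so a change over time within a segment cannot be read from them. Each segment and stage has 1 library, and the differences were not tested.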

How the results depend on the processing

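At E11.5 edgeR called 8047 genes, DESeq2 4890, and edgeR without the filter on low counts 4492 of 20146 genes. The calls of *Ebf1*, *Ebf2*, *Ebf3* and *Zfp423* kept their direction and side of the threshold under DESeq2, limma-voom, other size factors, all filtered cells and thinning. Thinning lowered the log2 difference of *Ebf2* from 0.94 to 0.51. Without the filter *Ebf1* (adjusted p = 0.0684) and *Zfp423* (0.0535) missed it, and with whole limb cells of proximal type *Ebf2* turned to -0.27 (adjusted p = 0.0715) and *Cebpb*, not called, to 0.023. *Cebpa*, not called, turned to -0.18 with thinning. Leaving out whole 1 or whole 2 gives values with no test. The number of genes at least 2-fold lower distally was 3, 2 as a mean over cells, and 1 after thinning or without the Car3 Agt cells, with *Lpl* at -0.98, -0.96 and -0.99 and *Pparg* at -1.14, -0.90 and -0.86 in that order. With fibroblast-like clusters alone it was also 3, but with *Cebpb* (-1.50) in place of *Lpl* (-0.39). The share of proximal cells with *Pparg* and *Cebpa* was 2.91% without thinning and 0% at 2 UMIs of each. *Pparg* in the Car3 Agt cells was at 35.6 CPM at resolution 0.5, where the cluster merged into 484 cells, and 74.4 CPM after thinning. The number at least 2-fold higher at E16.5 proximal than at E11.5 was 5 or 6 under every alternative run. For all these alternatives the share of all genes past 2-fold is not given, so their counts have no background beside them. The alternatives without the Car3 Agt cells, with the highest doublet scores removed and for *Pparg* in these cells were chosen after seeing the data. The planned removal of called doublets was not run. No paired analysis was possible because the sorted E11.5 group has 1 library. Causes were not tested.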

Other observations

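*Adipoq* had between 1 UMI (E11.5) and 27 UMIs (E16.5 proximal) outside epithelial-like clusters, of which 10 were in the Car3 Agt cells. *Plin1* was at 1.31 CPM at E12.5 and 0.608 CPM at E16.5 proximal, with its highest library level at E12.5, where *Pparg* had 6 UMIs. *Ucp1*, the uncoupling protein of brown fat, had 58 UMIs in the E16.5 proximal library and 0 in the Car3 Agt cells. *Prdm16*, a brown fat regulator that binds C/EBPβ, was at 22.3 CPM in the sorted E11.5 library against 50.5 and 56.2 CPM in whole 1 and whole 2 (log2 difference -1.44, edgeR adjusted p = 4.9e-31), and from E11.5 to E16.5 proximal its log2 difference was -3.26.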
